A study of Homo sapiens with 12 samples.

Results

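The genes followed were TNF, the NF-κB subunits, the feedback genes NFKBIA and TNFAIP3, the TNF-induced gene TNFAIP2 and the target gene ICAM1. Their response was measured upon knockdown of the lysine methyltransferase subunit KMT9α, which is encoded by N6AMT1. The 10 genes, TNF, TNFAIP2, TNFAIP3, NFKBIA, NFKB1, NFKB2, RELA, RELB, REL and ICAM1, were taken by symbol out of the 23064 gene symbols of the count tables, and all 10 passed the filter on low counts in both cell lines. Both lines, CAL-29 and 5637, derive from human bladder carcinomas and are long established. RNA was sequenced 3 days after transfection of either line with the control siRNA siCtrl or with an siRNA against KMT9α, with 3 libraries in each of the 4 groups and 12 in all. The labels describe the genotype of every sample as wild type, with no other agent or allele. They do not name the siRNA, which is called siKMT9α#1 here after the study's account of this experiment. Because one siRNA sequence was used, an effect of losing KMT9α and any other effect of that siRNA cannot be told apart. Culture medium, siRNA dose and transfection reagent differed with the cell line, so their effects cannot be told apart from those of the line. The labels do not say whether the 3 libraries of a group came from separate cultures, so p-values measure the spread between these libraries, which may be technical.

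TNF is a cytokine that binds receptors on the cell surface and, through adaptor proteins, ubiquitin ligases and the IKK kinases, releases NF-κB from its inhibitors. NF-κB is a family of dimers. RELA, RELB and REL carry the domain that activates transcription, whereas NFKB1 and NFKB2 encode precursors that are processed to the partner subunits p50 and p52. IκBα, the product of NFKBIA, holds the dimers in the cytoplasm, and A20, the product of TNFAIP3, edits ubiquitin chains upstream of IKK. Both genes are induced by NF-κB, so that the signal limits itself. In the bladder, TNF is among the cytokines released after instillation of BCG, and ICAM1 on urothelial cells is a docking site for leukocytes.

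The knockdown itself was measured first. N6AMT1 was at 11.1, 9.97 and 9.42 CPM (counts in 1000000, scaled with TMM over the 12 libraries) in the siCtrl libraries of CAL-29 and at 2.78, 2.88 and 1.96 CPM in the siKMT9α#1 libraries. In 5637 cells it was at 13.7, 13.4 and 13.5 CPM and fell to 3.87, 2.26 and 2.65 CPM, so the groups stood apart in both lines. The log2 fold change was -2.00 ± 0.15 (SE) in CAL-29 and -2.22 ± 0.12 in 5637 cells. Summed over 1 transcript per symbol, a library held 24479349 to 32007685 counts in CAL-29 and 27078217 to 35151257 counts in 5637 cells. The 7 epithelial marker genes were each at 1 CPM or more in every group, but their summed level, as a share of the library total, was lower with siKMT9α#1 (12613 to 13287 CPM against 6372 to 6496 CPM in CAL-29, 8859 to 9172 CPM against 5810 to 5966 CPM in 5637 cells). Of 6 leukocyte markers only CD14 and CD68 reached 1 CPM in CAL-29 and only CD68 in 5637 cells, and PTPRC, which marks leukocytes at large, stayed below that level in all groups. The summed leukocyte markers were at 6.15 to 7.91 CPM with siCtrl and 13.6 to 15.6 CPM with siKMT9α#1 in CAL-29, and at 3.66 to 4.07 CPM and 4.88 to 5.32 CPM in 5637 cells. The 4 fibroblast markers summed to 0.958 to 1.56 CPM with siCtrl and 0.656 to 0.770 CPM with siKMT9α#1 in CAL-29, and to 2.21 to 2.96 CPM and 1.41 to 1.85 CPM in 5637 cells. The 3 endothelial markers summed to 1.60 to 1.82 CPM and 4.32 to 4.78 CPM in CAL-29, and the other way, to 1.496 to 1.74 CPM and 0.507 to 0.849 CPM, in 5637 cells. The part of these shifts in the results was not tested. In bulk RNA, fewer cells in a given state and less transcript per cell cannot be told apart.

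Across the 10 genes the lines agreed for the cytokine TNF, for ICAM1, RELB and REL, and went opposite ways for TNFAIP2, NFKBIA and NFKB1. Here a gene is said to rise or fall when its adjusted p in edgeR's quasi-likelihood test was below 0.05, and to be a DEG when its unadjusted p was below 1e-06, the threshold of the study. In CAL-29 6 of the 10 genes rose and 4 fell, where 34.3% of the 14682 genes tested rose and 35.3% fell. As DEGs, TNFAIP2, NFKBIA and REL were higher and ICAM1 was lower, against 14.9% of all genes higher and 15% lower. In 5637 cells REL rose and 6 genes fell, where 35% of the 14367 genes tested rose and 35.6% fell. TNFAIP2, NFKB1 and ICAM1 were DEGs there, all 3 lower, against 17.5% of all genes lower and 17.9% higher. The median log2 fold change of the 10 genes was 0.14 in CAL-29 and -0.17 in 5637 cells, beside -0.016 and -0.0059 over all genes tested. The median size of the change, without its sign, was 0.52 against 0.38 over all genes in CAL-29 and 0.30 against 0.32 in 5637 cells. With so many genes changed after the knockdown, these counts alone do not set the 10 genes apart from the rest. Counts of DEGs rested on the test: with edgeR's likelihood ratio test or without the filter on low counts, 7 of the 10 genes in CAL-29 and 5 in 5637 cells were past 1e-06. The share of all genes past 1e-06 in these settings is not given here, so these counts have no background beside them.

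**Figure D1:**
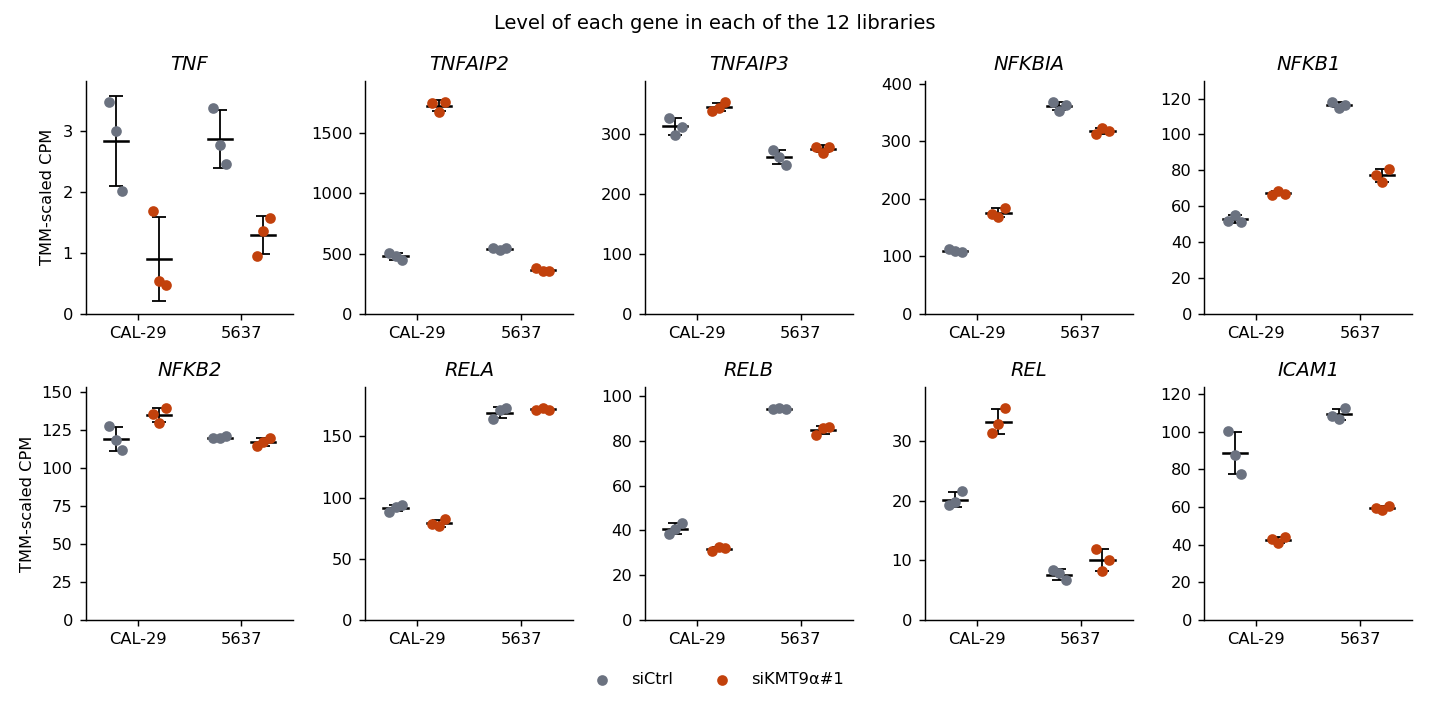
TMM-scaled CPM (y axis, linear from 0, own scale in each panel) of the 10 genes in the 12 libraries, by cell line and siRNA; points are libraries, horizontal lines are means and error bars are the SD over 3 libraries. TNF and ICAM1 were lower with siKMT9α#1 in both lines, whereas TNFAIP2 went from a mean of 477 to 1729.8 CPM in CAL-29 and from 541 to 364 CPM in 5637 cells.

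TNF, the ligand, is encoded at chr6:31543342-31546113 on the plus strand (GRCh37, the assembly that hg19 denotes). It was a rare transcript, with 12 to 108 counts in a library. In CAL-29 it was at 3.48, 3.01 and 2.02 CPM with siCtrl and at 1.69, 0.541 and 0.471 CPM with siKMT9α#1. The groups did not overlap, but siKMT9α#1 replicate 1 lay close to siCtrl replicate 3 and well above its own group. Group means (± SD, n = 3) were 2.84 ± 0.743 CPM and 0.902 ± 0.687 CPM. TNF thus fell with a log2 fold change of -1.64 ± 0.34 (SE, adjusted p = 0.00023). Without siKMT9α#1 replicate 1 the log2 fold change was -2.48 (adjusted p = 2.41e-06). In 5637 cells TNF was at 3.39, 2.78 and 2.46 CPM with siCtrl and at 0.957, 1.36 and 1.58 CPM with siKMT9α#1, again without overlap. The means of 2.88 ± 0.471 and 1.30 ± 0.315 CPM gave a log2 fold change of -1.13 ± 0.20 (adjusted p = 1.44e-05). The unadjusted p was above 1e-06 in both lines. The responses of the lines were not shown to differ (0.49 on the log2 scale, 5637 minus CAL-29, 95% interval -0.36 to 1.33, adjusted p = 0.363), and this rested on 1 library, since without siKMT9α#1 replicate 1 of CAL-29 the difference was 1.33 (adjusted p = 0.00864). TNF and ICAM1 are among the genes that the study selected on these libraries and then measured by qRT-PCR. Their direction here is therefore no independent evidence.

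ICAM1 at chr19:10381769-10397291 (plus strand), an adhesion molecule that binds leukocyte integrins and a classical target of TNF, fell with TNF in both lines. In CAL-29 its level was 100.2, 87.8 and 77.7 CPM with siCtrl and 42.7, 40.9 and 43.9 CPM with siKMT9α#1. In 5637 cells it was 108, 107 and 112 CPM and then 59.5, 58.6 and 60.3 CPM. In either line every siKMT9α#1 library was below every siCtrl library, and the siCtrl libraries of CAL-29 spread most. The log2 fold change was -1.08 ± 0.07 in CAL-29 (adjusted p = 2.65e-11) and -0.88 ± 0.04 in 5637 cells (adjusted p = 9.91e-18), that is 2.11-fold and 1.84-fold lower. The difference between the lines, 0.18 (95% interval 0.016 to 0.35), missed the threshold (adjusted p = 0.0748), and passed it without siCtrl replicate 3 of CAL-29 (0.27, adjusted p = 0.00283) or with a replicate block (0.18, adjusted p = 0.0389). Of the exon bases of ICAM1, 29.5% are shared with ICAM4-AS1 and LIMASI on the opposite strand, and counting was run with the default settings of its tool, for which the use of strand is not given in the sources used here, so the part of antisense reads in the counts of ICAM1 was not tested.

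The promoters and 3′ UTRs of the genes were read from the GRCh37 genome. In windows from 250 bases before to 50 bases after the canonical GENCODE start site, 2 consensus sequences of 10 letters, named the kappaB consensus and the RelA consensus, were searched on both strands, and matches to them may overlap. At least 1 match was found in 7 of the 10 genes (TNFAIP3, NFKBIA, NFKB1, NFKB2, RELB, REL and ICAM1) and in 15.6% of 19869 promoters of protein-coding genes, with 6.54% holding the kappaB consensus and 11% the RelA consensus. The 10 genes were chosen as members of the NF-κB pathway, so their share of matches is a description and not a result of the knockdown. No match was found in the windows of TNF, TNFAIP2 and RELA, which says only that these letters are not in these windows. The 4 windows below are shown because their genes carry the contrast between the lines: ICAM1 fell in both, and NFKBIA, NFKB1 and TNFAIP2 went opposite ways. Capitals mark matches to either consensus, and each window reads 5′ to 3′ along the gene.
ICAM1, chr19:10381546-10381845, plus strand: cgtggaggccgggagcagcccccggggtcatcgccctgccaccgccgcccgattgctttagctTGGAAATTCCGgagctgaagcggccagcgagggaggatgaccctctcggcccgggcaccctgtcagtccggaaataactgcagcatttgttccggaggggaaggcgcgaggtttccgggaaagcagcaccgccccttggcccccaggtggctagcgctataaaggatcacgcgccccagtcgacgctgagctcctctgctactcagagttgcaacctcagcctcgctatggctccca
NFKBIA, chr14:35873906-35874205, minus strand: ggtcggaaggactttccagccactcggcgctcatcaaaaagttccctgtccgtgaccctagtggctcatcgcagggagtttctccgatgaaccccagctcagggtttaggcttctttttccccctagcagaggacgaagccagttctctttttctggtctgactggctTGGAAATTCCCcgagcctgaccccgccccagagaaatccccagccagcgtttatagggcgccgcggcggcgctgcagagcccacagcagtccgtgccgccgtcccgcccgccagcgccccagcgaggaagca
NFKB1, chr4:103422266-103422565, plus strand: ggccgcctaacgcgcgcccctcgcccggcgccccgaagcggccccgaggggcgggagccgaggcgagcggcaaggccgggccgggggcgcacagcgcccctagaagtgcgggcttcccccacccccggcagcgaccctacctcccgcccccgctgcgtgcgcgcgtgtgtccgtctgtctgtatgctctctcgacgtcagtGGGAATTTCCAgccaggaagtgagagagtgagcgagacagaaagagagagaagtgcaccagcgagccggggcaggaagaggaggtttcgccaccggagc
TNFAIP2, chr14:103589548-103589847, plus strand: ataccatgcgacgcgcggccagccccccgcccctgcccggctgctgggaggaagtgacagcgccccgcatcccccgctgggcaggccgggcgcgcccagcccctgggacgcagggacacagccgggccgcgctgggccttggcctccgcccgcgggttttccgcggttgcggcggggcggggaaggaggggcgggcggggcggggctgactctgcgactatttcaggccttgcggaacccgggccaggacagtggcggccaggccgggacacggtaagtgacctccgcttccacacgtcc

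NFKBIA and NFKB1 held the same decamer, GGGAATTTCC, at positions -81 to -72 (on the minus strand of the window) and -49 to -40 from the start site, and REL held it at -46 to -37 (minus strand). In ICAM1 the capitals cover TGGAAATTCC and, read from the other strand, CGGAATTTCC, at -187 to -177. TNFAIP3 and NFKB2 shared GGGACTTTCC, at -67 to -58 (minus strand) and -21 to -12. RELB held GGGGTTTTCC at -131 to -122 and GGGGAATTCC at -59 to -50. Genes with matches moved in either direction: NFKBIA and NFKB1 rose in one line and fell in the other, REL rose and ICAM1 and RELB fell in both. The TNFAIP2 window starts inside the annotated gene span (chr14:103587813-103603776), downstream of the first bases of longer transcripts.

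The 3′ UTRs were searched for the heptamer ACATTCA, the complement of positions 2 to 8 of the strand of siKMT9α#1 that pairs with N6AMT1 mRNA. The outcome is shown because ICAM1 and REL hold it. The heptamer occurred 1 time in the canonical 3′ UTR of ICAM1, 2 times in that of REL and not in those of the other 8 genes, and in 13.2% of 19032 genes with a 3′ UTR of at least 50 bases. This share was not matched for length, and the 3′ UTR of REL has 9077 bases, beside 148 to 2079 in the rest of the 10 genes. ICAM1 fell and REL rose in both lines. The sites are shown with the heptamer in capitals, and whether the siRNA acts on them was not tested.
ICAM1, chr19:10396552-10396580, plus strand: cagtcctaatcACATTCAaggtcaccagg
REL, chr2:61151631-61151659, plus strand: gagaatcgtgtACATTCAagtccaggaat
REL, chr2:61158118-61158146, plus strand: aaaagtatcaaACATTCAtcttgcccatt

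TNFAIP2 was the gene in which the lines stood farthest apart among the 10. It is a TNF-induced gene whose product takes part in forming thin membrane protrusions. In CAL-29 it was at 504, 483 and 445 CPM with siCtrl and at 1754, 1676 and 1759 CPM with siKMT9α#1. In 5637 cells the siCtrl libraries were at 545, 530.0 and 549 CPM, and the siKMT9α#1 libraries were at 383, 356 and 353 CPM. The siCtrl levels of the lines were thus close (log2 difference 0.18 ± 0.05, 5637 minus CAL-29), and the siKMT9α#1 libraries lay above all of them in CAL-29 and below all of them in 5637. The log2 fold change was 1.84 ± 0.06 in CAL-29 (3.58-fold, adjusted p = 8.66e-17) and -0.57 ± 0.03 in 5637 cells (1.49-fold lower, adjusted p = 5.53e-15). The difference of the responses was -2.43 ± 0.07 (adjusted p = 6.81e-22). Responses differed at adjusted p below 0.05 for 6 of the 10 genes, where 50.3% of 15411 genes did.

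NFKBIA, on chromosome 14 at chr14:35870285-35873955 (minus strand), encodes the inhibitor IκBα. With siCtrl it was at 112, 109 and 108 CPM in CAL-29, and with siKMT9α#1 it rose to 174, 169 and 184 CPM. In 5637 cells it went from 368, 354 and 364 CPM to 314, 323 and 318 CPM. Even the lowest 5637 library was above the highest CAL-29 library, and the groups of each line did not overlap. The log2 fold change was 0.66 ± 0.05 in CAL-29 (adjusted p = 1.04e-10) and -0.19 ± 0.03 in 5637 cells (adjusted p = 5.05e-06), with a difference of -0.87 ± 0.06 (adjusted p = 3.16e-13). It was not a DEG in 5637 cells, where its unadjusted p was above 1e-06.

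NFKB1 (chr4:103422487-103538459, plus strand), the source of p50, followed the same pattern with a larger fall in 5637 cells. Its level was 52.0, 55.1 and 51.3 CPM with siCtrl and 66.2, 68.5 and 66.8 CPM with siKMT9α#1 in CAL-29. In 5637 cells it was 118, 115 and 117 CPM and then 77.6, 73.5 and 80.8 CPM. In siCtrl cells 5637 held 2.21-fold more of it than CAL-29, and with siKMT9α#1 the lines came closer without overlap. The log2 fold change was 0.33 ± 0.05 in CAL-29 (adjusted p = 9.48e-06) and -0.59 ± 0.04 in 5637 cells (adjusted p = 8.09e-14), and the difference was -0.94 ± 0.06 (adjusted p = 6.05e-13). TNFAIP2, NFKBIA and NFKB1 were the 3 of 10 genes that rose in one line and fell in the other, which 9.89% of the 13699 genes tested in both lines did. TNF, RELB, REL and ICAM1 moved the same way in both, as 44.2% of the genes did.

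TNFAIP3, the gene of the deubiquitinase A20 at chr6:138188351-138204451 (plus strand), moved little. It was at 297 to 326 CPM with siCtrl and 338 to 352 CPM with siKMT9α#1 in CAL-29, a log2 fold change of 0.12 ± 0.05 (adjusted p = 0.0269). This call was lost without siCtrl replicate 2 (adjusted p = 0.138), siKMT9α#1 replicate 2 (0.0678) or siKMT9α#1 replicate 3 (0.101). In 5637 cells the groups overlapped, at 248 to 272 CPM and 268 to 278 CPM, and the log2 fold change of 0.076 (95% interval 0.0086 to 0.14) missed the threshold (adjusted p = 0.0506). It passed without siCtrl replicate 1 (0.11, adjusted p = 0.0106) or siKMT9α#1 replicate 2 (0.095, adjusted p = 0.035), and without the filter on low counts (adjusted p = 0.0304), with DESeq2's size factors (0.0415) or with a replicate block (0.0298), whereas scaling by total counts gave 0.022 (adjusted p = 0.586). Of the feedback genes, NFKBIA thus changed in opposite directions and TNFAIP3 had small values in both lines.

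RELA, RELB and REL, the activating subunits, each gave a different response. RELA (p65, chr11:65421070-65430561, minus strand) was at 88.4, 91.9 and 93.6 CPM with siCtrl and at 78.1, 77.0 and 82.2 CPM with siKMT9α#1 in CAL-29, a fall of -0.23 ± 0.05 on the log2 scale (adjusted p = 0.000331). In 5637 cells it was at 164 to 173 CPM with siCtrl and 172 to 173 CPM with siKMT9α#1, with overlap (log2 fold change 0.019, 95% interval -0.047 to 0.085, adjusted p = 0.631), and the sign of this value turned without siCtrl replicate 1 (-0.0043). RELB (chr19:45504719-45541450, plus strand), a partner of p52 in the non-canonical pathway, was at 38.2 to 43.1 CPM with siCtrl and 31.0 to 32.6 CPM with siKMT9α#1 in CAL-29. In 5637 cells it was at 94.3 to 94.6 CPM and then 82.9 to 86.1 CPM. RELB thus fell in both lines without overlap, by -0.37 ± 0.06 in CAL-29 (adjusted p = 1.94e-05) and -0.15 ± 0.04 in 5637 cells (adjusted p = 0.000571).

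REL (c-Rel, chr2:61108626-61158747, plus strand), a subunit best known from lymphocytes, rose in both lines. It was at 19.2, 19.7 and 21.7 CPM with siCtrl and at 31.4, 32.9 and 35.5 CPM with siKMT9α#1 in CAL-29, where the groups were well apart. In 5637 cells the values were 8.31, 7.85 and 6.64 CPM and then 11.9, 8.18 and 10.1 CPM, and siKMT9α#1 replicate 2 lay below siCtrl replicate 1. The log2 fold change was 0.70 ± 0.07 (adjusted p = 3e-08) in CAL-29 and 0.40 ± 0.11 (adjusted p = 0.0025) in 5637 cells. The difference between the lines, -0.31 (95% interval -0.59 to -0.035), missed the threshold (adjusted p = 0.0669). It passed without any 1 of 4 libraries: siCtrl replicate 3 (-0.41, adjusted p = 0.0238) or siKMT9α#1 replicate 1 (-0.45, 0.00987) of 5637, or siCtrl replicate 3 (-0.37, 0.0359) or siKMT9α#1 replicate 1 (-0.35, 0.0484) of CAL-29. With a replicate block it passed as well (-0.32, adjusted p = 0.0264). Of the exon bases of REL, 51.3% are shared with another annotated gene on the same strand, so its counts may hold reads of that gene.

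NFKB2 (chr10:104153867-104162281, plus strand), the source of p52 and of the inhibitor p100, was at 112 to 128 CPM with siCtrl and 130.1 to 139 CPM with siKMT9α#1 in CAL-29, a log2 fold change of 0.16 ± 0.05 (adjusted p = 0.0108). That call was lost without siCtrl replicate 3 (0.12, adjusted p = 0.0537) or siKMT9α#1 replicate 3 (0.14, adjusted p = 0.0561). In 5637 cells the level was 119.8 to 121 CPM and then 114 to 119.6 CPM, and the log2 fold change of -0.039 (95% interval -0.11 to 0.029) did not pass (adjusted p = 0.322). Other transcript rows of NFKB1, NFKB2 and RELA gave similar values: across the 4 RELA rows the log2 fold change was -0.23 to -0.22 in CAL-29 and 0.013 to 0.017 in 5637 cells. These rows held nearly the same counts as the rows used, so their likeness is no separate support. Over the CAL-29 libraries the NFKB1 rows held 10209.5 (used) and 10186 counts, and the RELA rows 14293 (used) and 12419.5 to 14292.

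The remaining differences between the lines were small. They were -0.21 ± 0.06 for NFKB2 (adjusted p = 0.00567), 0.23 ± 0.06 for RELA (adjusted p = 0.00155) and 0.20 ± 0.07 for RELB (adjusted p = 0.0146), and TNFAIP3 was not shown to differ (-0.065, 95% interval -0.18 to 0.053, adjusted p = 0.386). Scaling by the total counts, instead of TMM, moved the median difference of all genes from -0.043 to -0.16, and the share of differences past 1e-06 that were higher in 5637 from 45.1% to 27.6%. Under it the differences of RELA (0.11, adjusted p = 0.101) and RELB (0.085, adjusted p = 0.306) lost their call, that of NFKB2 became -0.33, and those of TNFAIP3 (-0.18, adjusted p = 0.0127) and REL (-0.43, adjusted p = 0.0121) passed. The RELB difference was also lost without siCtrl replicate 3 of CAL-29 (0.15, adjusted p = 0.0642). The differences of TNFAIP2, NFKBIA and NFKB1 kept their sign and call in all alternatives run, at -2.55 to -2.39, -0.99 to -0.84 and -1.06 to -0.91.

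**Figure D2:**
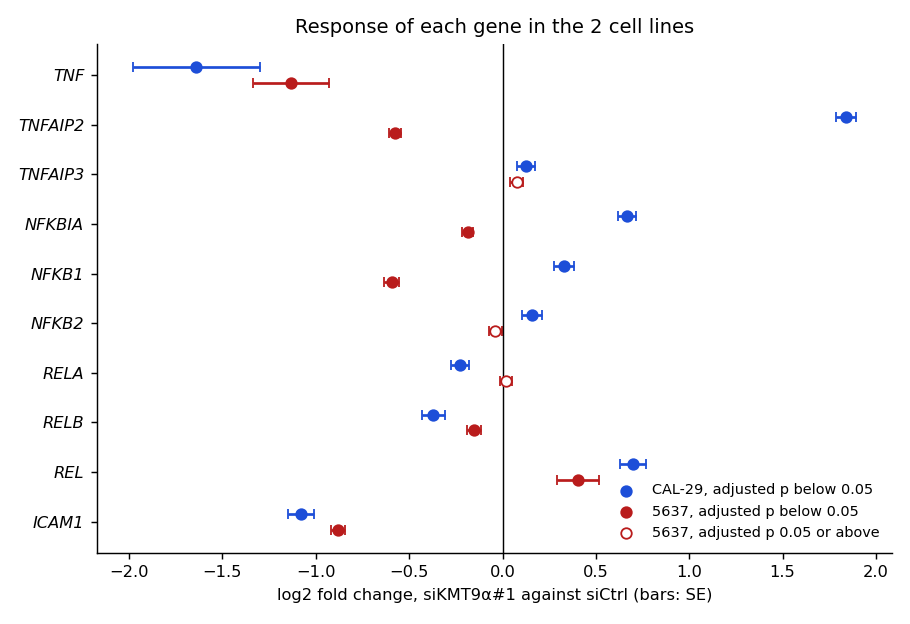
Log2 fold change of siKMT9α#1 against siCtrl (x axis) for the 10 genes (y axis) in CAL-29 (blue) and 5637 cells (red); error bars are the SE of the edgeR fit and open symbols did not pass adjusted p below 0.05. TNF (-1.64 and -1.13) and ICAM1 (-1.08 and -0.88) lie left of 0 in both lines, and TNFAIP2, NFKBIA and NFKB1 lie on opposite sides of 0.

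In siCtrl cells the lines already differed in 8 of the 10 genes at adjusted p below 0.05, as did 85.3% of all genes tested. Medium, siRNA dose and reagent differed with the line as well. NFKBIA was 3.31-fold, RELB 2.32-fold, NFKB1 2.21-fold and RELA 1.86-fold higher in 5637 cells, and ICAM1 (1.23-fold) and TNFAIP2 (1.13-fold) were higher by less. REL was 2.67-fold and TNFAIP3 1.20-fold lower in 5637 cells. TNF (log2 difference 0.021, 95% interval -0.48 to 0.52) and NFKB2 (0.0099, 95% interval -0.078 to 0.098) were not shown to differ. Of the 6 genes that were higher in 5637 siCtrl cells, 3 (TNFAIP2, NFKBIA and NFKB1) rose in CAL-29 and fell in 5637 cells. RELA, RELB and ICAM1 were higher there too and did not go opposite ways.

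Levels were compared between genes as CPM per kb of the canonical GENCODE transcript. In CAL-29 siCtrl cells TNFAIP2 was highest at 102 ± 6.47 CPM per kb, followed by NFKBIA (70.2), TNFAIP3 (66.8), NFKB2 (39.6), RELA (36.3), ICAM1 (29.9), RELB (18.0), NFKB1 (13.0), REL (1.82) and TNF (1.69). The library ranges of NFKBIA and TNFAIP3, of NFKB2 and RELA, and of REL and TNF overlapped, so these neighbours could not be ordered. In 5637 siCtrl cells NFKBIA led at 232 ± 4.83 CPM per kb, before TNFAIP2 (116), RELA (67.4), TNFAIP3 (55.8), RELB (41.8), NFKB2 (39.9), ICAM1 (36.8), NFKB1 (28.7), TNF (1.71) and REL (0.684), with no overlap between neighbours. With siKMT9α#1, TNFAIP2 reached 369 ± 9.88 CPM per kb in CAL-29 and 77.8 ± 3.57 in 5637 cells. Parts of this order depend on the length used. Per kb of coding length, which leaves out the long 3′ UTR of REL, REL (11.5) was above TNF (4.06) in CAL-29, and in 5637 cells their ranges overlapped (3.77 to 4.72 and 3.52 to 4.85). On that scale TNFAIP3 (132) was above NFKBIA (115) and ICAM1 (55.5) above NFKB2 (44.2) in CAL-29. In 5637 cells TNFAIP3 (109.9) was above RELA (102.6), and ICAM1 (68.5) was above RELB (54.4) and NFKB2 (44.5).

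The makeup of the 5 subunit transcripts was compared within each line. As a share of the summed CPM per kb of RELA, RELB, REL, NFKB1 and NFKB2, NFKB2 held 36.4% ± 2.30 and RELA 33.4% ± 1.11 in CAL-29 siCtrl cells (SD, n = 3), with overlapping libraries. In 5637 siCtrl cells RELA held 37.7% ± 0.691 and NFKB2 22.3% ± 0.145. Per kb of coding length RELA held the most in both lines, 36.2% beside 29% for NFKB2 in CAL-29 and 41.7% beside 18.1% in 5637 cells. REL was the smallest share in both, at 1.67% ± 0.117 and 0.384% ± 0.0469, or 7.52% and 1.76% per kb of coding length. Upon knockdown the share of NFKB1 went from 11.7 to 12.4% with siCtrl to 14.6 to 15.6% with siKMT9α#1 in CAL-29, and from 15.9 to 16.5% to 11.02 to 11.9% in 5637 cells, without overlap. The share of RELA moved the other way, from 33.4% ± 1.11 to 28.6% ± 0.334 in CAL-29 and from 37.7% ± 0.691 to 41.5% ± 0.541 in 5637 cells. The share of RELB changed by -3.73 percentage points in CAL-29 and -0.598 in 5637 cells, and that of NFKB2 gained 4.34 and 1.23 points. In 5637 cells the levels of RELA and NFKB2 themselves were not shown to change (log2 fold changes 0.019 and -0.039), while NFKB1 and RELB fell. Each share gave p = 0.1 in the 2-sided exact permutation test in both lines, the smallest p that 3 libraries against 3 allow. The shares sum to a whole, so they are not independent of each other.

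**Figure D3:**
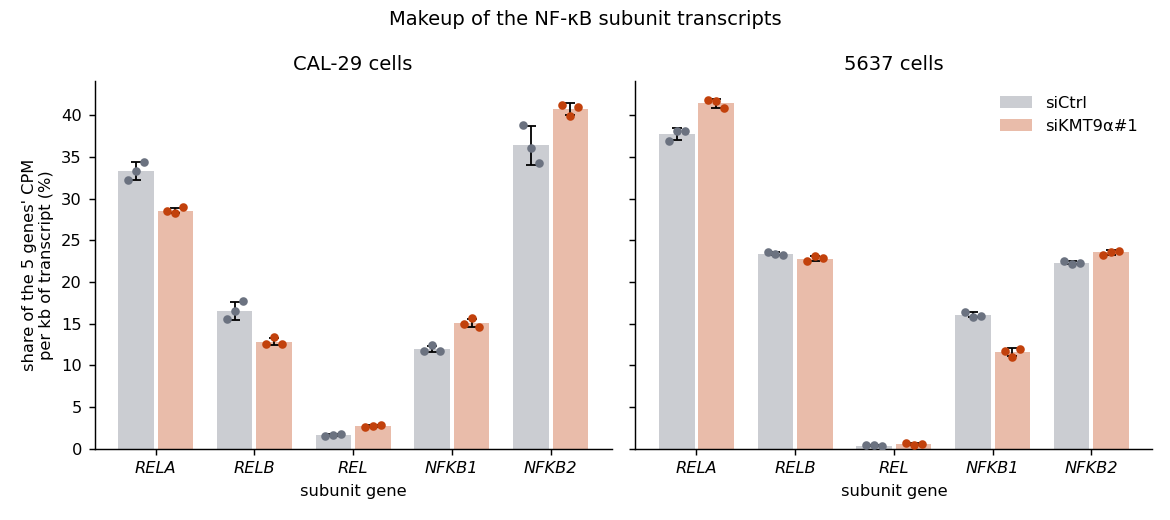
Share of each NF-κB subunit gene in the summed CPM per kb of the 5 genes (y axis, percent, from 0) in CAL-29 (left) and 5637 cells (right); bars are means, points are libraries and error bars are the SD over 3 libraries. The share of NFKB1 went from 11.97% to 15.1% in CAL-29 and from 16.1% to 11.6% in 5637 cells, with the share of RELA moving the opposite way. The level of RELA itself was not shown to change in 5637 cells.

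Other genes of the pathway were described from 3 lists that leave out the 10 genes. Of 28 receptors, adaptors and IKK subunits, all tested in CAL-29 and 27 in 5637 cells, 12 rose and 9 fell in CAL-29 and 8 rose and 8 fell in 5637 cells. Of 17 other IκB family and feedback genes, 8 rose and 6 fell in CAL-29 and 7 rose and 3 fell in 5637 cells. The median log2 fold changes of these lists, 0.015 and 0.11 in CAL-29 and 0.011 and 0.062 in 5637 cells, were near those of all genes. The 30 target genes, 29 of them tested in CAL-29 and 27 in 5637 cells, had a median of 0.74 in CAL-29, where 16 rose and 8 fell, and of 0.026 in 5637 cells, where 11 rose and 11 fell. As DEGs, 14 targets were higher and 4 lower in CAL-29, and 10 were higher and 9 lower in 5637 cells. Some of these genes were near 0 in the group where they were low. In CAL-29, CCL20 went from 0.051 to 3.09 CPM, BCL2A1 from 0.102 to 0.980 CPM and the feedback gene TNIP3 from 0 to 0.486 CPM. In 5637 cells CCL2 went from 1.65 to 0.0253 CPM. Such genes are in the counts and medians, which therefore rest in part on genes measured almost only in the group where they are high. Over all genes, 14.9% were DEGs that were higher and 15% lower in CAL-29, and 17.9% and 17.5% in 5637 cells, while 34.3% rose and 35.3% fell in CAL-29 and 35% and 35.6% in 5637 cells. The response of the targets was lower in 5637 than in CAL-29 for 15 genes and higher for 6, of 29 tested, where 50.3% of all genes differed in either direction, with a median difference of -0.73 beside -0.043 over all genes.

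Among the receptors and adaptors, LTBR, the lymphotoxin receptor that feeds the non-canonical pathway, rose by 0.73 ± 0.05 in CAL-29 and 0.73 ± 0.03 in 5637 cells on the log2 scale, and its downstream kinase gene MAP3K14 (NIK) by 0.49 ± 0.06 and 0.89 ± 0.05. IRAK1, a kinase of the interleukin-1 and Toll-like receptors, rose by 0.29 ± 0.05 and 0.45 ± 0.03. BIRC2, which encodes the ubiquitin ligase cIAP1 that acts at the TNF receptor and on NIK, went from 74.1 ± 0.658 to 35.1 ± 3.07 CPM in CAL-29 and from 223 ± 6.06 to 70.9 ± 2.44 CPM in 5637 cells (log2 fold changes -1.10 and -1.65). BIRC2 is also among the genes the study selected on these libraries and then measured by qRT-PCR. The adaptor genes TRADD (-0.30 and -0.58) and TRAF6 (-0.61 and -0.33) fell in both lines. Each of these changes had an adjusted p of at most 0.00187.

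Of the feedback genes, NFKBIB (IκBβ) rose by 0.74 ± 0.06 and 0.74 ± 0.05 in CAL-29 and 5637 cells, unlike NFKBIA. BCL3, an IκB-like protein that works with p50 and p52 in the nucleus, rose by 1.29 ± 0.07 and 0.73 ± 0.05, and the ubiquitin ligase gene ITCH by 0.38 ± 0.04 and 0.69 ± 0.03. TNIP1, which encodes an A20-binding protein, fell by -0.45 ± 0.04 and -0.47 ± 0.03, and the deubiquitinase gene CYLD by -0.23 ± 0.06 and -0.65 ± 0.07. COMMD1, a factor in the turnover of RELA, fell by -0.47 ± 0.10 and -0.34 ± 0.12, and the call in 5637 cells (adjusted p = 0.0159) was lost without siKMT9α#1 replicate 1 (-0.21, adjusted p = 0.141).

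Among the targets, SOD2, a mitochondrial antioxidant enzyme, rose from 24.5 ± 0.721 to 127 ± 7.11 CPM in CAL-29 and from 221 ± 9.03 to 426 ± 14.2 CPM in 5637 cells. IL1A (1.14 and 0.70 on the log2 scale) and the urokinase gene PLAU (0.90 and 0.82) also rose in both lines. CFLAR, an inhibitor of caspase activation by death receptors, fell by -0.85 and -0.23, LIF by -0.63 and -0.35, and TNFSF15, a TNF-family ligand, by -0.28 in CAL-29 and -2.72 in 5637 cells. The largest adjusted p among these 6 genes was 0.0018, for TNFSF15 in CAL-29.

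Opposite responses, as in TNFAIP2, were found in 5 target genes that rose in CAL-29 and fell in 5637 cells, which were named after their values were seen. The chemokine gene CXCL1 went from 98.7 ± 8.76 to 373 ± 8.98 CPM in CAL-29 and from 403 ± 8.97 to 254 ± 4.83 CPM in 5637 cells, and CXCL8 from 46.9 ± 8.09 to 158 ± 14.5 CPM and from 369 ± 8.75 to 247 ± 8.20 CPM. SAA1, an acute phase protein gene, changed by 2.09 and -1.03 on the log2 scale, the macrophage growth factor gene CSF1 by 1.23 and -1.15, and IL1B by 1.09 and -0.28. All 5 were lower in CAL-29 than in 5637 siCtrl cells, which was not particular to opposite responses. Of the targets above that moved the same way in both lines, SOD2, IL1A, PLAU and LIF were also lower in CAL-29 siCtrl cells, and CFLAR and TNFSF15 were higher. Among receptors and adaptors, IL1R1 (0.97 and -0.23) and BIRC3 (2.57 and -0.13), which encodes cIAP2, rose in CAL-29 and fell in 5637 cells. The targets IER3 (-0.34 and 0.48) and GADD45B (-1.13 and 0.17) went the other way. The rise of GADD45B in 5637 cells (adjusted p = 0.0358) was lost under scaling by total counts (adjusted p = 0.155), in DESeq2 (0.261) and in the joint model (0.0589). It was also lost without siCtrl replicate 1 (0.058), siCtrl replicate 3 (0.264), siKMT9α#1 replicate 2 (0.271) or siKMT9α#1 replicate 3 (0.134). Opposite ways were thus taken by 7 of 27 targets, GADD45B among them, 2 of 27 receptors and adaptors and 0 of 17 feedback genes, beside 9.89% of all genes tested in both lines. The lists were written with earlier results of these data known, so these shares are a description and show no excess. The other chemokine genes among the targets did not go opposite ways in the lines as CXCL1 and CXCL8 did. CXCL2 and CCL20 rose in both lines, by 0.38 and 1.21 on the log2 scale in 5637 cells. CXCL3 rose in CAL-29 and was not shown to change in 5637 cells (0.036, adjusted p = 0.509). The responses of CXCL2, CXCL3 and CCL20 were still lower in 5637 than in CAL-29 cells, by -2.02, -4.06 and -4.60, as were those of CXCL1 (-2.59) and CXCL8 (-2.33). In CAL-29 siCtrl cells CXCL2, CXCL3 and CCL20 were near 0, at 0.676, 0.574 and 0.051 CPM, so the size of their differences is uncertain. CCL2 fell in both lines, and CXCL10 and CCL5 were not shown to change in either or to differ between them (interaction test, adjusted p = 0.711 and 0.57).

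**Figure D4:**
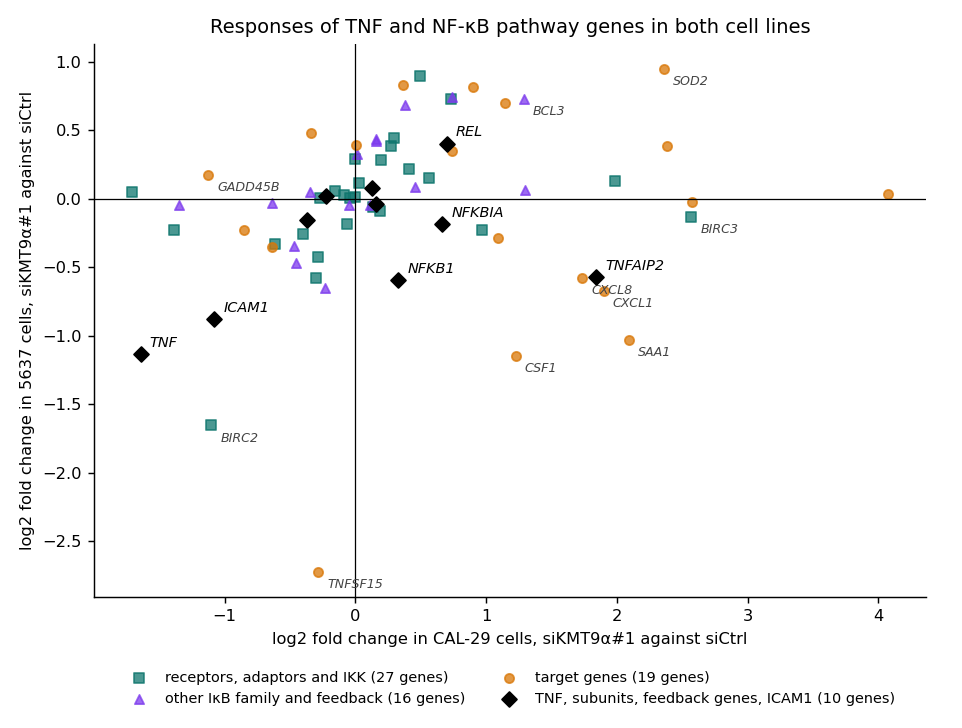
Log2 fold change of siKMT9α#1 against siCtrl in CAL-29 (x axis) and in 5637 cells (y axis) for the 10 genes (black) and for the pathway genes with a mean of at least 50 counts in each line (27 receptors, adaptors and IKK subunits, 16 feedback genes, 19 targets); each point is 1 gene. TNF, ICAM1 and BIRC2 lie at the lower left, and TNFAIP2, CXCL1, CXCL8, CSF1 and SAA1 lie at the lower right, higher in CAL-29 and lower in 5637 cells.

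Likeness of pattern was measured for TNF, NFKBIA and ICAM1 as Pearson's r of log2 CPM over the 12 libraries after centring on the mean of each line, among 11914 genes. The points share siRNA groups and scaling, so r is a description only. Nearest to TNF were MKNK1 (r = 0.958), ZNF226 (0.955) and RAB33B (0.947), which had log2 fold changes of -0.77 and -0.41, -0.62 and -0.44, and -0.52 and -0.32 in CAL-29 and 5637 cells. Nearest to NFKBIA were RNF114 (0.997; 0.58 and -0.16), TFPI2 (0.996; 1.41 and -0.38) and LAPTM4B (0.994; 0.40 and -0.11). Nearest to ICAM1 were NECTIN2 (0.996; -0.56 and -0.46), LTBP2 (0.996; -1.48 and -1.18) and the epithelial cadherin gene CDH1 (0.995; -0.74 and -0.53).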

How the data were processed

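RNAseq libraries of CAL-29 and 5637 cells were assigned to a line, an siRNA and a replicate from the sample labels. The columns of the tables call the siRNA against KMT9α si270, which was taken to be siKMT9α#1 from the study's account, and replicates carry the numbers of the sample titles. Alignment (STAR, hg19) and counting per RefSeq transcript (Homer) were done by the authors. Homer ran with default settings, and whether these used strand is not given in the sources used here. The deposited tables hold estimated counts that are not normalized and move in steps of 0.5. They list 37400 transcripts, which carry 23064 gene symbols, and no per-sample column was left out. Each table also holds 3 columns of the authors' own comparison (log2 fold change, p-value and its adjusted form, from edgeR), which entered no step.

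Each symbol was represented by its transcript with the highest total, and counts were rounded. In edgeR 4.0.16 (R 4.3.3) each line was tested with TMM scaling, filterByExpr by siRNA and the quasi-likelihood F test with siRNA as the only term. Differences between the lines came from 1 model of all 12 libraries. P-values were adjusted by Benjamini-Hochberg over all genes tested. The SE was the log2 fold change divided by the square root of F, and 95% intervals are 1.96 SE on either side. CPM values were scaled over the 12 libraries. Between replicates the counts varied beyond sampling noise (chi-square over degrees of freedom 2.21 to 11.7), with a biological coefficient of variation of 5.08% in CAL-29 cells and 3.34% in 5637 cells.

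The genes followed, the 3 pathway lists and the tests were chosen with earlier results of these data known. Pathway genes were named by rule as the 3 rising and 3 falling genes of each list with the largest smaller change of the lines, among those past adjusted p below 0.05 in both with a mean count of at least 50. Start sites, gene positions and lengths came from GENCODE v44 lifted to GRCh37. The tests were tested on simulated data. Alternatives were other size factors, total counts, other filters, DESeq2 1.42.0, the likelihood ratio test, the replicate number as a block, every transcript, a joint model and each library left out in turn.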

Additional observations from a re-analysis of the deposited data

Results flagged for a closer look

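The results here stand out because the response to siKMT9α#1 in 5637 cells differed from that in CAL-29 cells in the interaction test over 12 libraries, as it did for 50.3% of all genes. Values are the response in 5637 minus that in CAL-29 cells on the log2 scale. Among the 10 genes they were -2.43 for TNFAIP2, -0.87 for NFKBIA, -0.94 for NFKB1, -0.21 for NFKB2, 0.23 for RELA and 0.20 for RELB. The values of RELA and RELB did not pass with scaling by total counts.

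Among receptors and adaptors the differences were -1.21 for IL1R1, -2.72 for BIRC3, -0.57 for BIRC2, -0.29 for TRADD, 0.26 for TRAF6 and 0.38 for MAP3K14. Of the feedback genes, BCL3 differed by -0.57, CYLD by -0.43 and ITCH by 0.29.

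Among the targets the differences were -3.14 for SAA1, -2.59 for CXCL1, -2.46 for TNFSF15, -2.39 for CSF1, -2.33 for CXCL8, -1.43 for SOD2, -1.39 for IL1B and -0.47 for IL1A, all lower in 5637 cells. IER3 (0.81), GADD45B (1.28), CFLAR (0.61) and LIF (0.27) had higher values in 5637 cells.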

How the results depend on the processing

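Of the values for single genes and line differences under each alternative, 1301 kept their direction and their side of the threshold, 16 lost the call, 16 gained it and 7 changed sign. The number of the 10 genes past p below 1e-06 went from 4 to 7 in CAL-29 cells with the likelihood ratio test, without the filter on low counts and with a replicate block, and from 3 to 5 in 5637 cells with the likelihood ratio test and without the filter. It was 4 to 6 in CAL-29 cells and 3 in 5637 cells when each library was left out in turn. The shares of all genes past 1e-06 in these settings are not given here, so the counts cannot be set beside a background. The causes were not tested. Same-numbered libraries deviated together weakly at most (correlations of -0.0115 to 0.0823 in CAL-29 cells and -0.00374 to 0.0647 in 5637 cells). Libraries of different numbers gave -0.0783 to 0.0298 and -0.0418 to 0.0339, so in each line the highest value was of a same-numbered pair. Whether the numbers mark pairs is not known, and the main fits took them to name libraries only. The replicate block raised the count of responses that differed between the lines from 6 to 8, adding REL and ICAM1. Values that changed sign were all near 0 and passed in no setting. The difference of TNF between siCtrl lines was -0.0064 in DESeq2 and -0.17 to 0.20 with a library left out, that of NFKB2 was -0.016 in DESeq2 and -0.030 to 0.064, and the RELA response in 5637 cells was -0.035 with scaling by total counts and -0.0043 to 0.035 with a library left out. Scaling by total counts moved the CAL-29 responses of TNFAIP3 to 0.20 and of RELA to -0.15, gave NFKB2 in 5637 cells a call (-0.093, adjusted p = 0.0171), and moved the line difference of ICAM1 to 0.066. TNF had the fewest counts of the 10 genes, 12 to 108 a library, and whether depth limits its values was not tested.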
